A study of Mus musculus with 12 samples.

Results

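Bpifc, Ddx4 and Emp1 are 3 of the 18193 genes measured on these arrays, and 4 of the 34945 probe sets that carry a single gene symbol belong to them. They were chosen by the log2 intensity of their brightest probe sets, which was far higher in multipotent progenitors (MPP) than in the other populations profiled, so the height of MPP over the others is described here and not tested. Affymetrix arrays were hybridised with RNA from mouse haematopoietic stem cells (HSC, 3 arrays), MPP (3 arrays), pre-megakaryocyte-erythroid progenitors (PreMegE, 4 arrays) and CD4+ T cells (2 arrays). All mice were C57Bl/6, aged 10 to 12 weeks, with no treatment. HSC were sorted from bone marrow as lineage-, cKit+, Sca1+, CD150+, Flt3- cells. MPP came from the same tissue as lineage-, cKit+, Sca1+, CD150-, Flt3+ cells, and PreMegE as lineage-, cKit+, Sca1-, CD150+, CD105-, CD41- cells. The T cells were splenic, CD4+ and negative for CD8, B220 and Nk1.1. The PreMegE and CD4+ T cell arrays were taken over from earlier studies of the same group, so study and population cannot be told apart for them. The labels do not say whether arrays of a population came from separate mice, so p-values measure the spread between these arrays, which may be technical.

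Ddx4, also called Vasa, is an RNA helicase of the DEAD-box family and a classical marker of germ cells, where it sits in RNA-rich granules and takes part in silencing transposons through piRNAs. Bpifc belongs to the BPI fold family of lipid-binding proteins, whose best known members bind bacterial lipopolysaccharide. Emp1 is a membrane protein of the PMP22 family that is named after epithelia. MPP follow HSC in haematopoiesis: they have lost long-term self-renewal and, in the Flt3+ fraction sorted here, begin to transcribe lymphoid and granulocyte-monocyte genes.

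The RefSeq windows from 250 bases before to 50 bases after the annotated gene start are shown because the 3 genes shared a pattern over the arrays and their start regions can be set side by side. Coordinates are those of GRCm38.p6, each sequence is given on the gene's own strand, and positions count from the annotated start as 0. Motifs were searched on both strands. Capitals in Bpifc and Emp1 mark TGANTCA, a loose form of the AP-1 letters in which N is any base. In Ddx4 they mark the GC box, which reads GGGCGG, the box CCAAT, and the E-box, which reads CACGTG, each on either strand. The windows are chr10:86011811-86012110 on the minus strand for Bpifc, chr13:112652261-112652560 on the minus strand for Ddx4 and chr6:135362681-135362980 on the plus strand for Emp1.
Bpifc: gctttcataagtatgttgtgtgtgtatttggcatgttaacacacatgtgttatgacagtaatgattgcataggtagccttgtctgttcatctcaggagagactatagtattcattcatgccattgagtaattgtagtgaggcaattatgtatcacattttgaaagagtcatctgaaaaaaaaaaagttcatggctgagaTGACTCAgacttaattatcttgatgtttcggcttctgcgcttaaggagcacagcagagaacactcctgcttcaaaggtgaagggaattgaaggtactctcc
Ddx4: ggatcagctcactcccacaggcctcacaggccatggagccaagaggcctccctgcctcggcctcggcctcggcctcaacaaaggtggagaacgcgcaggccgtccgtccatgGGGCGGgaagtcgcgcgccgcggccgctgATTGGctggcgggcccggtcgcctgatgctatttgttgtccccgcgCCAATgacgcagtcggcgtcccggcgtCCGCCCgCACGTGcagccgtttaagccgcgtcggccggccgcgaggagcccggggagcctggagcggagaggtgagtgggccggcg
Emp1: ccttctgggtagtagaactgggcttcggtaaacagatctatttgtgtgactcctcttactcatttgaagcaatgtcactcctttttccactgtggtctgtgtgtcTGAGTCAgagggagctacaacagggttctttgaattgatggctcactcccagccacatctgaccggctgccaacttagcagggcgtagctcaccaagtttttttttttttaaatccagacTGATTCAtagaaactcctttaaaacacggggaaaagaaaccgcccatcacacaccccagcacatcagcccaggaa

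The window of Ddx4 differed in composition from the other windows shown. It was 72% G or C and held 38 CpG dinucleotides, more than 95% of the 32851 mouse windows of this length, whose median was 7. The Bpifc window was 38.7% G or C with 2 CpG, and the Emp1 window 46.7% with 5 CpG. The Ddx4 window held 2 GC boxes (35.7% of all windows hold at least 1), 2 CCAAT boxes (37.4%) and an E-box whose first base lay at -29 (7.15%). Its E2F letters (TCCCGC, 20% of windows) began at -136 and overlapped the GC box that began at -138. AP-1 letters in this loose form stood once in the Bpifc window, as TGACTCA at -51. In the Emp1 window they stood as TGAGTCA at -145 and as TGATTCA at -25. With any middle base, 7.81% of all windows held them. The Bpifc window also held GATA letters (AGATAA, 11.2%) at -37, and the Emp1 window RUNX letters (TGTGGT, 16.8%) at -160 and a GC box at 14. A further Emp1 start in RefSeq, at chr6:135367243-135367542, held none of the 12 motifs searched. The cAMP response element (TGACGTCA, 1.79% of windows), TATAAA (13.6%), the ETS letters CCGGAAG (8.86%), the PU.1 letters GAGGAAG (13.6%) and the C/EBP letters TTGCNNAA (10.8%) were in none of the windows. A match is a description of the letters and not a bound site.

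The sort markers mostly followed the labels. Flt3 had a log2 intensity of 9.95 to 10.10 on the MPP arrays and 6.34 to 6.82 on the HSC arrays. Slamf1, the gene of CD150, lay at 3.53 to 3.86 in MPP and at 6.67 to 7.05 in HSC. Cd4 read 9.11 to 9.49 on the CD4+ T cell arrays and at most 5.13 on the MPP arrays. Itga2b, the gene of CD41, which was absent from the surface of sorted PreMegE, read 8.15 to 8.82 there, 10.46 to 10.63 in HSC and 7.70 to 7.89 in MPP. HSC replicates 2 and 3 carried the Y-linked transcript Eif2s3y (7.46 and 8.47) and little Xist (2.45 and 2.59), whereas HSC replicate 1 had Xist at 12.04 and Eif2s3y at 2.31, like the arrays of the other populations. Comparisons with HSC were therefore repeated with HSC replicate 1 as the only HSC array. The difference between 3' and 5' actin probe sets, a sign of RNA integrity and of amplification, was 2.42 to 2.77 in HSC and 2.36 to 2.68 in MPP, but 3.49 to 4.65 in PreMegE and 0.99 to 1.13 in CD4+ T cells. Its part in the differences against the latter populations was not tested.

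Ddx4 was bright in MPP and near the bottom of the scale everywhere else. On its only probe set (1427242_at), the log2 intensities in MPP were 7.56, 7.38 and 7.58. They were 3.20, 2.95 and 3.24 in HSC. In PreMegE they were 2.57, 2.50, 2.71 and 2.66, and in CD4+ T cells 2.22 and 2.55. The 3 MPP arrays lay close together and far above the other 9, which all fell below the lower quartile over genes of their population (3.27 to 3.35). The mean was 7.51 ± 0.11 (SD, n = 3) in MPP and 3.13 ± 0.16 (SD, n = 3) in HSC, a log2 difference of 4.38, and the lowest MPP array exceeded the highest other array by 4.14. The difference was 4.90 against PreMegE (2.61 ± 0.10, SD, n = 4) and 5.13 against CD4+ T cells (2.38 ± 0.23, SD, n = 2). Levels so low carry mostly background signal, so the ratios are better read against the lower quartile of each population: MPP Ddx4 was 17.8-fold above that of HSC, 18.2-fold above that of PreMegE and 18.8-fold above that of CD4+ T cells.

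Bpifc had the same shape with more spread among the MPP arrays. Its only probe set (1437232_at) read 7.12, 7.84 and 7.40 in MPP. It read 2.86, 2.88 and 2.87 in HSC. The PreMegE arrays gave 2.64, 2.54, 2.50 and 2.85, and the CD4+ T cell arrays 2.52 and 2.56. No array outside MPP came near the MPP arrays, and the 9 others spanned only 0.38 on the log2 scale. The mean was 7.45 ± 0.36 (SD, n = 3) in MPP against 2.87 ± 0.01 (SD, n = 3) in HSC, a difference of 4.58, with a gap of 4.25 between the lowest MPP array and the highest other array. The difference was 4.82 against PreMegE (2.63 ± 0.16, SD, n = 4) and 4.91 against CD4+ T cells (2.54 ± 0.03, SD, n = 2). Measured from the lower quartile of the other population, MPP Bpifc was 17.2-fold higher for HSC, 17.5-fold for PreMegE and 18.1-fold for CD4+ T cells.

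Emp1 was also high in MPP, and its next highest signal, in T cells, was low. Its brighter probe set (1416529_at) read 7.518, 7.998 and 7.870 in MPP. It read 3.10, 3.79 and 3.15 in HSC and 3.45, 2.88, 2.60 and 2.93 in PreMegE. The CD4+ T cell arrays gave 4.11 and 4.60. The MPP arrays lay above all others, the T cell arrays came next without overlap, and HSC and PreMegE overlapped each other. The MPP mean of 7.80 ± 0.25 (SD, n = 3) exceeded that of HSC (3.35 ± 0.38, SD, n = 3) by 4.45 and that of PreMegE (2.97 ± 0.36, SD, n = 4) by 4.83. It exceeded that of CD4+ T cells (4.36 ± 0.35, SD, n = 2) by 3.44, which is 10.8-fold, and the gap between the lowest MPP and the highest T cell array was 2.92. The CD4+ T cell mean lay between the lower quartile (3.27) and the median (4.69) over genes in that population.

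The other Emp1 probe set did not show this pattern. Probe set 1459171_at read 4.21, 4.09 and 4.72 in MPP. It read 3.85, 4.10 and 4.11 in HSC. The PreMegE arrays gave 4.18, 3.83, 3.84 and 4.01, and the CD4+ T cell arrays 3.72 and 4.11. The MPP arrays overlapped those of every other population. The MPP mean of 4.34 ± 0.33 (SD, n = 3) was 0.32 above HSC, 0.38 above PreMegE and 0.43 above CD4+ T cells, so the height of Emp1 in MPP rests on a single probe set. Their means over the 12 arrays, by which the brighter was picked, were 4.50 and 4.06. Such disagreement was common among 48 genes with several probe sets whose brightest was at least 4-fold higher in MPP than in HSC. Of them, 23 (47.9%) had a next probe set that was less than 2-fold higher or was lower. In bulk samples, fewer cells that express a gene and less RNA per cell cannot be told apart.

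**Figure D1:**
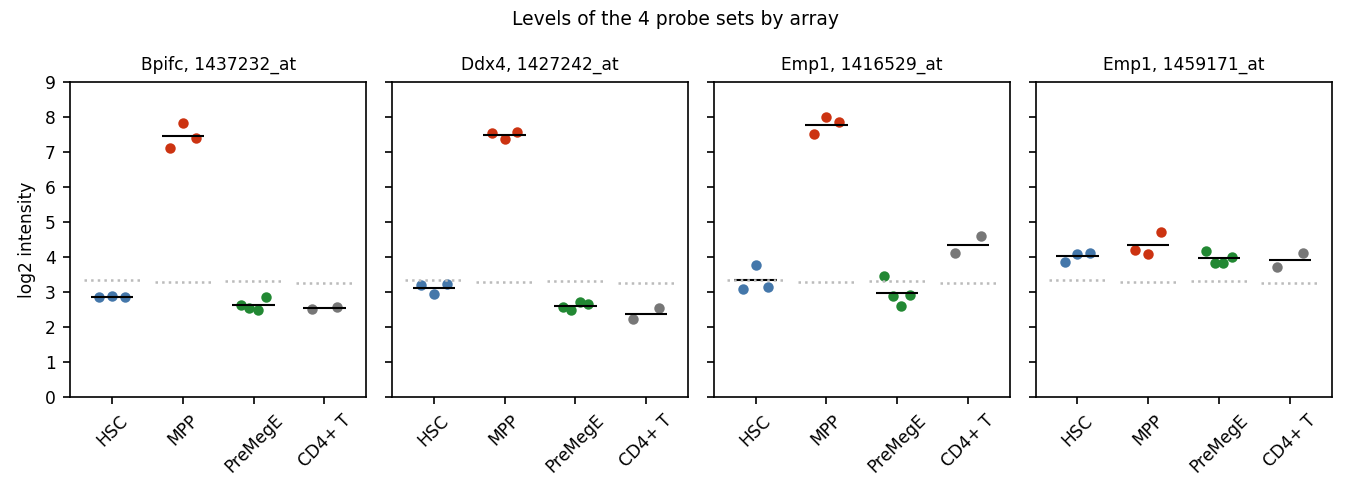
Log2 intensity of the 4 probe sets on each of the 12 arrays, by population (points: arrays; bars: population means; dotted lines: lower quartile over the 18193 genes in that population). Ddx4, Bpifc and the brighter Emp1 probe set read 7.12 to 7.998 in MPP and at most 4.60 elsewhere, while the other Emp1 probe set stayed between 3.72 and 4.72 in all 4 populations.

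Among all genes, those 3 stood near the top of the order by the margin of the MPP mean over the next highest population. Bpifc was in place 4 with a margin of 4.58 over HSC, Ddx4 in place 6 with 4.38 over HSC, and Emp1 in place 16 with 3.44 over CD4+ T cells. The HSC levels of Bpifc and Ddx4 lie below the lower quartile, so these margins and places are approximate: with 16 added before log2 the margins were 3.04, 3.00 and 2.70. Their neighbours in that order were Ccl9 (place 3, 4.83) and Cxcl2 (place 5, 4.58), both chemokines, BC035044 (place 7, 4.35), Cdkn1a (place 15, 3.47), a cell cycle inhibitor, and Flt3 (place 17, 3.42), the receptor used in the sort. The lowest MPP array lay above all 9 others for 1020 genes (5.61%), and 220 genes (1.21%) were called higher in MPP, and at least 2-fold higher, against each of the 3 other populations. By single comparisons, 11.3% of all genes were called in either direction between MPP and HSC, 33% between MPP and PreMegE and 35.5% between MPP and CD4+ T cells. The 3 genes are among the 220 by the way they were chosen, and nothing is read from these shares.

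The choice of these genes required lower levels in HSC, PreMegE and CD4+ T cells than in MPP but did not use the order of those 3 populations. Tests between them, made by limma over all 18193 genes, are therefore not fully independent of the choice. Of the 3 genes, 1 differed between PreMegE and HSC, where 28.9% of all genes were called. It was Ddx4, lower in PreMegE by a log2 difference of -0.52 ± 0.14 (SE; limma, Benjamini-Hochberg adjusted p = 0.00966). Ddx4 was also lower in CD4+ T cells than in HSC (-0.75 ± 0.17; limma, adjusted p = 0.00184), as were 20.8% of all genes, and no array of either population reached the lowest HSC array. Both levels compared are below the lower quartile, so the size of these differences is a difference between dim signals. With HSC replicate 1 as the only HSC array, the difference from PreMegE was -0.60 and was no longer called (limma, adjusted p = 0.0609), and neither was it with 16 added before log2 (-0.17; adjusted p = 0.0556). The difference between CD4+ T cells and PreMegE was -0.23 (95% interval -0.56 to 0.11).

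Emp1 differed between CD4+ T cells and both progenitor populations on the brighter probe set. It was higher in CD4+ T cells than in HSC by 1.01 ± 0.27 (limma, adjusted p = 0.006) and than in PreMegE by 1.39 ± 0.25 (limma, adjusted p = 0.00035). In these comparisons 37.8% and 33.1% of all genes were called, and Emp1 and Ddx4 made 2 of the 3 genes called between CD4+ T cells and HSC. Without CD4+ T cell replicate 2 the difference from HSC was 0.77 and was not called (limma, adjusted p = 0.0916). On the other probe set both differences had the opposite sign, -0.11 and -0.05, and neither was called. Markers of other cells were also higher in CD4+ T cells than in HSC: 8 of 16 macrophage and dendritic cell genes and 5 of 11 B cell genes were called higher, and 0 and 1 lower, against 17% and 20.8% of all genes. Their summed log2 levels were 11.40 to 11.89 and 9.35 to 9.37 on the CD4+ T cell arrays, and 9.92 to 10.92 and 7.76 to 8.44 in HSC. Among them were Cd74, the invariant chain of MHC class II, at 8.52 against 5.59, and the B cell surface gene Ms4a1 at 6.61 against 3.05. Their part in the Emp1 level was not tested. Emp1 in PreMegE was -0.38 from HSC (95% interval -0.85 to 0.09; limma, adjusted p = 0.241).

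Bpifc was not called in any of these comparisons. PreMegE minus HSC was -0.24 (95% interval -0.59 to 0.11; limma, adjusted p = 0.324) and CD4+ T cells minus HSC was -0.33 (95% interval -0.75 to 0.08; limma, adjusted p = 0.216). The order of its levels was therefore MPP, then HSC, PreMegE and CD4+ T cells with no neighbours separated beyond their error below MPP. For Ddx4 the order was the same, with HSC separated from PreMegE except with HSC replicate 1 alone or 16 added, and PreMegE not separated from CD4+ T cells. For Emp1 it was MPP, CD4+ T cells, HSC and PreMegE, with HSC and PreMegE not separated.

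The genes whose profiles over the 12 arrays were closest to each of the 3 were found by the root mean square (RMS) difference between profiles centred on their own means. Bpifc and Ddx4 were each other's nearest gene of all 18193, with an RMS difference of 0.27 on the log2 scale. Atf3, an immediate early transcription factor of the ATF/CREB family, came next for both, at 0.32 from each. After it, Bpifc was followed by the chemokine genes Ccl9 (0.39) and Ccl3 (0.50) and by Flt3 (0.53). Ddx4 was followed by Cd244a (0.42), which encodes a receptor of the SLAM family, Ccl9 (0.42) and Slc35d3 (0.43), a nucleotide sugar transporter family gene. These profiles share arrays and the choice of a high MPP level, so likeness is a description.

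Emp1 was less close to the others. Its nearest gene was Bhlhe40, a transcriptional repressor with a basic helix-loop-helix domain, at an RMS difference of 0.50, followed by Bpifc (0.60), Atf3 (0.64), Flt3 (0.71) and Rel (0.71), an NF-kappaB subunit. Seen from Bpifc, Emp1 was in place 9, and from Ddx4 in place 14. Bhlhe40 and Rel, like Emp1, were higher in CD4+ T cells than in PreMegE: Bhlhe40 had a mean log2 intensity of 6.33 in T cells and 4.53 in PreMegE, and Rel 5.44 and 3.46. The T cell arrays lay apart for Rel, at 4.66 and 6.22. Both genes were picked for likeness to Emp1 over these same arrays, so the shared rise is a description. In MPP, Bhlhe40 stood at 9.33 ± 0.20 and Rel at 7.23 ± 0.09 (SD, n = 3).

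**Figure D2:**
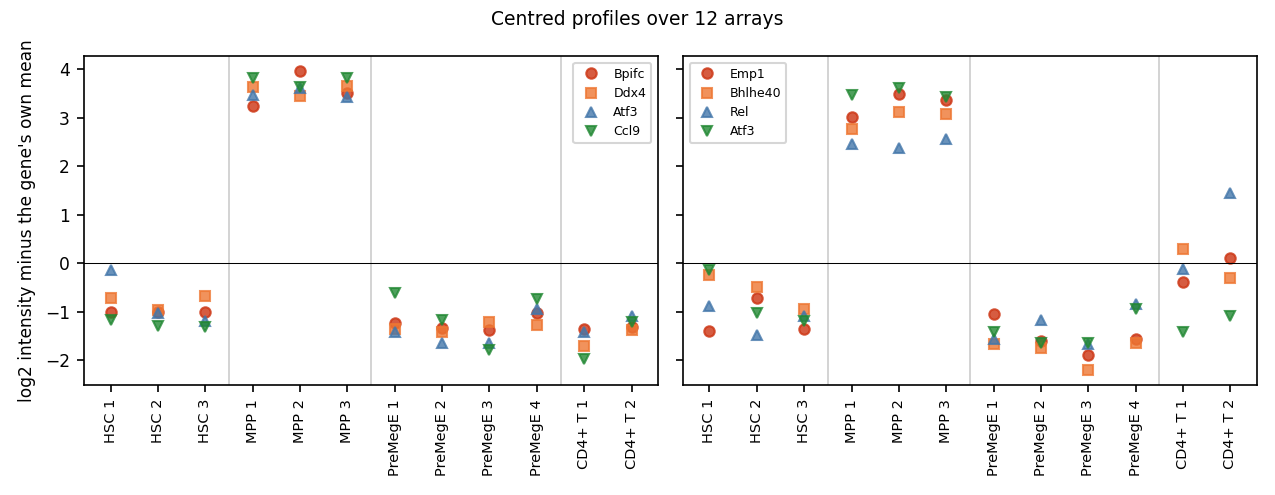
Log2 intensity minus the gene's own mean over 12 arrays, for Bpifc and Ddx4 with Atf3 and Ccl9 (left) and for Emp1 with Bhlhe40, Rel and Atf3 (right); each point is an array. Bpifc and Ddx4 run together (RMS difference 0.27), and Emp1, Bhlhe40 and Rel are raised on the CD4+ T cell arrays relative to PreMegE.

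The partners of Ddx4 in the germ line were not called between MPP and HSC. Ddx4 was chosen for its height in MPP, so most other genes would differ less, and nothing is read from that contrast. Of 28 listed genes of germline RNA granules and the piRNA pathway, 24 were measured, and limma called 0 of them higher and 0 lower in MPP than in HSC, where 6.38% of all genes were called higher and 4.93% lower. At an unadjusted p under 0.05, 1 of the 24 passed, against 22.6% of all genes. Their differences ran from -0.34 for Wdr77, a partner of the arginine methyltransferase Prmt5, to 0.45 for Pld6, a mitochondrial factor of piRNA formation. Their median was 0.01, and that of all genes -0.03. The core factors were dim: Dazl, an RNA-binding protein of germ cells, had a mean of 2.72 in MPP and 2.97 in HSC. Piwil2, a piRNA-binding Argonaute protein, stood at 3.07 and 2.69, and Tdrd1, a Tudor protein of the granules, at 2.69 and 2.66. In all, 8 of the 24 lay below the lower quartile in all 4 populations.

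Against the other populations a few of these genes did differ. Tdrkh, a Tudor protein that anchors piRNA factors at mitochondria, was higher in MPP than in PreMegE by 0.86 (limma, adjusted p = 0.00623) and than in CD4+ T cells by 2.04 (limma, adjusted p = 1.23e-05), but was as high in HSC (6.32) as in MPP (6.50 ± 0.12, SD, n = 3) within the error of the difference (0.18 ± 0.23). In all, 6 of the 24 were called higher and 0 lower against CD4+ T cells (20% and 15.5% of all genes), and 2 higher and 0 lower against PreMegE (19.5% and 13.5%). Without CD4+ T cell replicate 2, 3 of the 24 were called higher against that population. The call of 1 of the 2 against PreMegE, Pld6, ended without MPP replicate 2 (difference 0.33; limma, adjusted p = 0.152) and without PreMegE replicate 1 (0.49; adjusted p = 0.0554).

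Markers of germ cells and meiosis were likewise not called between MPP and HSC. All 20 listed genes were measured, with 0 higher, 0 lower and 0 at an unadjusted p under 0.05 by limma. The shares of all genes were 6.38%, 4.93% and 22.6%. The differences ran from -0.38 for Sohlh1 to 0.29 for Sohlh2, both germ cell transcription factors. Sycp3, a protein of the synaptonemal complex that joins meiotic chromosomes, had a mean of 2.64 in MPP and 2.59 in HSC. Dppa3, a primordial germ cell and oocyte gene, stood at 3.71 and 3.83. The list's median per array was 3.23 to 3.40 in MPP, 3.21 to 3.52 in HSC, 2.93 to 3.37 in PreMegE and 3.35 to 3.49 in CD4+ T cells. Rec8, a cohesin subunit of meiosis, was highest in PreMegE, at 7.95 against 6.27 ± 0.30 (SD, n = 3) in MPP (difference -1.68; limma, adjusted p = 3.01e-06). It was higher in MPP than in CD4+ T cells by 1.45 (limma, adjusted p = 6.13e-05). In all, 2 of the 20 were called higher and 1 lower against PreMegE, beside 19.5% and 13.5% of all genes. Against CD4+ T cells it was likewise 2 and 1, beside 20% and 15.5%. Spo11, the enzyme that cuts DNA to start meiotic recombination, was higher in MPP than in PreMegE by 1.199 (limma, adjusted p = 0.00217), and Oosp1 by 0.46 (adjusted p = 0.0488). In many of the alternatives, such as leaving out any MPP array, 1 of the 20 was called higher against PreMegE.

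Of 15 other DEAD-box helicases measured, 2 were higher in MPP than in HSC and 0 lower, where 6.38% and 4.93% of all genes were called. Ddx41, a helicase linked to splicing and innate sensing, was higher by 0.83 ± 0.16 (limma, adjusted p = 0.00213), and its highest mean was in CD4+ T cells (8.14 against 7.03 in MPP and 6.20 in HSC). Ddx3x, an abundant translation-linked helicase, was higher by 0.74 ± 0.19 (limma, adjusted p = 0.0198), with 11.46 in MPP, 10.72 in HSC and 11.55 in PreMegE. The call of Ddx3x ended without HSC replicate 2 (0.57; limma, adjusted p = 0.101) and without MPP replicate 1, 2 or 3 (adjusted p = 0.0518, 0.0586 and 0.081). With HSC replicate 1 as the only HSC array neither was called (limma, adjusted p = 0.146 for Ddx41 and 0.278 for Ddx3x).

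Genes that keep germline genes silent in somatic cells, namely the Polycomb complex PRC1.6 with DNA and histone methyltransferases, gave mixed small differences between MPP and HSC. Of 19 measured, 2 were higher and 2 lower, beside 6.38% and 4.93% of all genes. L3mbtl2, a subunit of PRC1.6, was lower by -0.67 ± 0.15 (limma, adjusted p = 0.0082), and the de novo DNA methyltransferase Dnmt3a by -0.75 ± 0.22 (limma, adjusted p = 0.0384). Pcgf6, the subunit that defines PRC1.6, was higher by 0.60 ± 0.18 (limma, adjusted p = 0.0432), and Ring1 by 0.58 ± 0.18 (limma, adjusted p = 0.048). None of the 4 calls held throughout. With the mean of all its probe sets Dnmt3a differed by -0.14 (limma, adjusted p = 0.682), and with HSC replicate 1 as the only HSC array by -0.46 (adjusted p = 0.587). That of L3mbtl2 ended without MPP replicate 3 (-0.60; limma, adjusted p = 0.0519), and those of Dnmt3a, Pcgf6 and Ring1 without any of the MPP replicates (adjusted p from 0.0738 to 0.19). Those 3 also ended without 2 of the HSC replicates each, namely 2 and 3 for Dnmt3a (adjusted p = 0.158 and 0.0866), 1 and 2 for Pcgf6 (0.128 and 0.173), and 1 and 3 for Ring1 (0.206 and 0.107). Some of them moved just past the threshold without an array of the populations not compared: PreMegE replicate 4 for Dnmt3a (adjusted p = 0.0517), PreMegE replicate 2 or 4 for Pcgf6 (0.0588 and 0.0549), and PreMegE replicate 1, 2 or 4 or either CD4+ T cell array for Ring1 (0.0529 to 0.0596).

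Among the relatives of Bpifc, 1 of 11 measured members of the BPI and PLUNC family was higher in MPP than in HSC, and 0 were lower, beside 6.38% and 4.93% of all genes. It was Lbp, which binds lipopolysaccharide in serum, and its level was graded over the marrow populations: 7.78 ± 0.08 (SD, n = 3) in MPP, 7.07 in HSC and 4.20 in PreMegE, with 5.90 in CD4+ T cells. The difference from HSC was 0.71 ± 0.19 (limma, adjusted p = 0.0233). That call ended without HSC replicate 3 (0.55; limma, adjusted p = 0.0969), without MPP replicate 1, 2 or 3 (adjusted p = 0.0565, 0.0672 and 0.096), and with HSC replicate 1 as the only HSC array (0.46; adjusted p = 0.448). With quantile normalisation it was 0.61 (limma, adjusted p = 0.0563). The differences of Lbp from PreMegE (3.58; limma, adjusted p = 5.98e-10) and from CD4+ T cells (1.88; adjusted p = 3.14e-06) were called in every alternative run. Pltp, the phospholipid transfer protein, was highest in CD4+ T cells (7.04 against 4.61 in MPP). The genes of the family expressed in airway and mouth, Bpifa1 and Bpifa2, lay below the lower quartile in all 4 populations.

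Of the relatives of Emp1, 1 of 9 measured members of the PMP22 and EMP family was higher in MPP than in HSC and 0 were lower, beside 6.38% and 4.93% of all genes. Perp, a p53 target found in desmosomes, was higher by 0.78 ± 0.21 (limma, adjusted p = 0.0232) at a low level, 4.12 ± 0.32 in MPP and 3.34 in HSC. Its call ended without HSC replicate 2 (0.61; limma, adjusted p = 0.115), without MPP replicate 2 or 3 (adjusted p = 0.119 and 0.0717), and with HSC replicate 1 as the only HSC array (0.64; adjusted p = 0.297). Emp3, a family member common in blood cells, was bright throughout at 9.67 in MPP, 9.48 in HSC, 9.35 in PreMegE and 10.44 in CD4+ T cells. Emp2 stood at 3.90 to 4.23 and Pmp22 at 2.65 to 3.06 in the 4 populations. Of 17 epithelial and keratinocyte markers, limma called 0 higher and 0 lower in MPP than in HSC, beside the same 6.38% and 4.93% of all genes. At an unadjusted p under 0.05, 2 of the 17 passed, against 22.6% of all genes. The summed level of the 17 per array was 9.02 to 9.21 in MPP and 8.90 to 9.13 in HSC on the log2 scale.

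**Figure D3:**
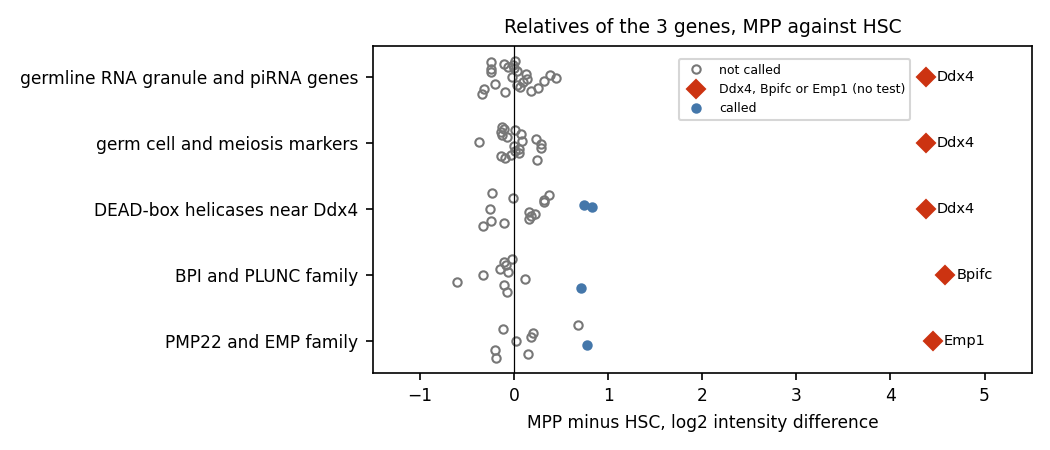
MPP minus HSC log2 difference of each measured gene in 5 lists related to Ddx4, Bpifc and Emp1 (circles: other list members, filled where limma called them; diamonds: the 3 genes themselves, with no test). The 3 genes lie at 4.38 to 4.58, and no other member of these lists exceeds 0.83. The 3 genes were chosen for their height in MPP, so nothing is read from this contrast.

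Neighbouring genes on the chromosomes differed far less between MPP and HSC than the 3 genes. Those were chosen for their height in MPP, so most other genes would differ less, and nothing is read from the contrast. The closest protein-coding genes with a probe set, 2 on each side, were taken in the order of RefSeq. Beside Bpifc on chromosome 10, Rtcb, a tRNA ligase, was higher in MPP than in HSC by 0.60 ± 0.17 (limma, adjusted p = 0.0311), with 10.87, 10.86 and 10.89 in MPP and 10.28, 10.10 and 10.46 in HSC. The other Rtcb probe sets differed by 0.70 and 1.07. On brightest probe sets, Rtcb was the single one of the 12 neighbours called against HSC, where 11.3% of all genes were called in either direction. That call ended without HSC replicate 1 or 2 and without any MPP array (limma, adjusted p = 0.0758 to 0.128, with differences of 0.51 to 0.61). Fbxo7, a ubiquitin ligase subunit on the other side of Bpifc, differed from HSC by 0.53 ± 0.18 (limma, adjusted p = 0.0792, and 0.0399 without either CD4+ T cell array) and was higher in MPP than in PreMegE by 0.93 (limma, adjusted p = 0.000459) and than in CD4+ T cells by 0.71 (adjusted p = 0.0115). Rtcb was higher in MPP than in PreMegE by 0.80 (limma, adjusted p = 0.000919) and than in CD4+ T cells by 0.64 (adjusted p = 0.0131). The calls against CD4+ T cells ended without CD4+ T cell replicate 1 for both genes (adjusted p = 0.236 for Fbxo7 and 0.0544 for Rtcb), without MPP replicate 2 for Fbxo7 (0.0501), and without CD4+ T cell replicate 2 (0.0664) or with the mean of its probe sets (0.325) for Rtcb. The outer neighbours Prdm4 and Syn3 differed from HSC by 0.23 ± 0.22 and -0.40 ± 0.21 and were not called. The other Syn3 probe sets differed by -0.22 and 0.42.

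Around Ddx4 on chromosome 13 and Emp1 on chromosome 6, none of the 8 neighbours was called between MPP and HSC. Il31ra, a cytokine receptor gene next to Ddx4, was highest in PreMegE at 6.42 ± 0.60 (SD, n = 4) against 4.01 in MPP and 4.16 in HSC. Il6st, the shared receptor subunit of the IL-6 family, was highest in CD4+ T cells at 9.49 against 5.70 in MPP and 5.62 in HSC. On the other side of Ddx4, Slc38a9, a lysosomal amino acid transporter, differed by -0.41 ± 0.26 and Plpp1, a lipid phosphatase, by -0.14 ± 0.16. The other probe sets of Slc38a9 differed by -1.095 to -0.17, and those of Plpp1 by -0.42 and -0.27. Next to Emp1, Gsg1, Pbp2, Grin2b and E330021D16Rik differed by -0.22 to 0.19, and Gsg1 and Pbp2 had MPP means of 2.87 and 2.95, below the lower quartile.

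**Figure D4:**
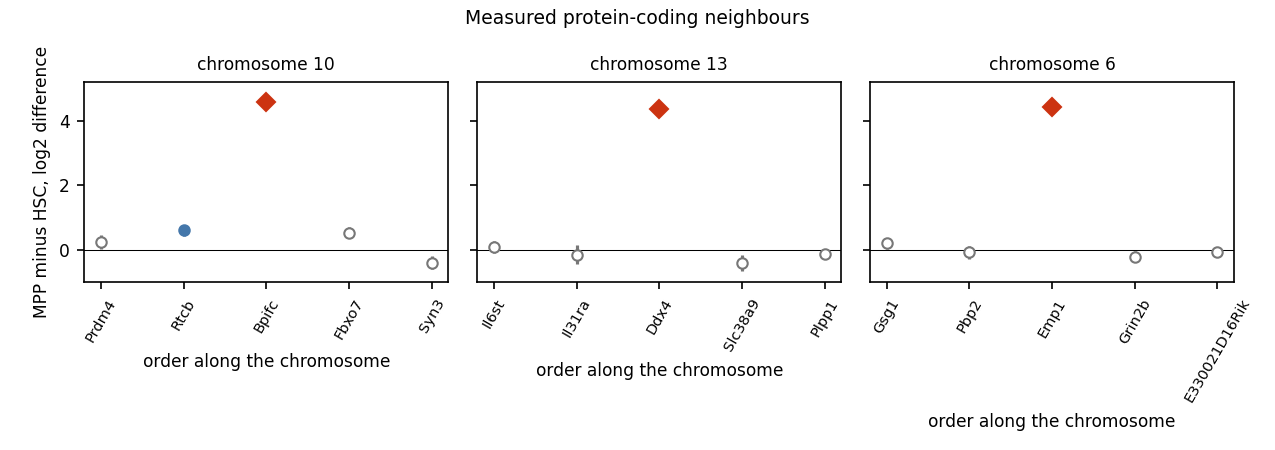
MPP minus HSC log2 difference of Bpifc, Ddx4 and Emp1 (diamonds) and of the 2 nearest measured protein-coding genes on each side, in chromosomal order (circles with SE; filled: called by limma). On the brightest probe set of each gene, the 12 neighbours lie between -0.41 and 0.60, and the 3 genes between 4.38 and 4.58. The 3 genes were chosen for their height in MPP, so nothing is read from this contrast.

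Immediate early genes are switched on within minutes of a stimulus and also rise during tissue handling. As a list they were, like the 3 genes, highest in MPP. Of 22 measured, 17 were higher and 1, Myc, lower in MPP than in HSC, beside 6.38% and 4.93% of all genes. In the list, 12 were at least 2-fold higher, and called, against every other population, as were 1.21% of all genes. The difference of Myc was -0.57 (limma, adjusted p = 0.0449), and its call ended without HSC replicate 1 or 3, any MPP array, or PreMegE replicate 2 or 4 (adjusted p = 0.0549 to 0.172). The list's median log2 intensity was 10.59, 10.31 and 10.47 on the MPP arrays, 8.90, 8.24 and 7.66 on the HSC arrays, 5.25 to 5.37 in PreMegE, and 7.90 and 7.47 in CD4+ T cells. In PreMegE, 18 of the 22 were called lower than in HSC and 1 higher, beside 17% and 11.9% of all genes. Of the 3 genes only Ddx4 was called there. The HSC means of the 3 genes were 2.87 for Bpifc, 3.13 for Ddx4 and 3.345 for Emp1, below the lower quartile over genes in HSC (3.35). A fall like that of the list could not show from such levels, so nothing is read from the contrast. The highest HSC array for this list was replicate 1, and with it as the only HSC array 10 of the 22 were called higher. Cxcl2 (4.58 ± 0.30) and Atf3 (4.29 ± 0.25) had the largest differences from HSC of the list, close to those of Ddx4, Bpifc and Emp1. Of the genes whose proteins form AP-1, Fosb was higher by 2.48 ± 0.24 and Junb by 2.45 ± 0.27 (limma, adjusted p = 5.96e-06 and 2.3e-05), while Fos differed by 0.37 ± 0.38 (limma, adjusted p = 0.658). Their part in the levels of the 3 genes was not tested.

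Genes of lymphoid and granulocyte-monocyte priming were also higher in MPP. Of 19 lymphoid genes, 13 were higher and 1, Mef2c, lower than in HSC (0 lower without HSC replicate 2), led by Dntt (6.83 ± 0.24), the template-independent polymerase of V(D)J joining, and Satb1 (4.12 ± 0.18), a chromatin organiser. Of 18 granulocyte-monocyte genes, 12 were higher and 0 lower, led by Emb (3.81 ± 0.27), a cell adhesion protein, and Ctsg (3.78 ± 0.42), a granule protease. The mean of Emb was 10.87 in CD4+ T cells and 10.07 in MPP, a difference that was not called (limma, adjusted p = 0.0554). Of these lists, 3 lymphoid and 5 granulocyte-monocyte genes were called at least 2-fold higher in MPP than in every other population, as were 1.21% of all genes. The lymphoid genes counted include Flt3, whose protein was used to sort MPP and HSC. Of the markers of other cell types, 1 of 16 macrophage and dendritic cell (Bst2), 1 of 12 neutrophil (Padi4), 0 of 11 mast cell and 0 of 11 B cell genes were higher in MPP than in HSC, where 6.38% of all genes were called higher and 4.93% lower. Called lower were 1 of the macrophage and dendritic cell, 2 of the neutrophil, 1 of the mast cell and 0 of the B cell genes. The neutrophil genes that were lower encode the granule protein Ngp (-2.89; limma, adjusted p = 0.0134) and the chitinase-like protein Chil3 (-2.82; limma, adjusted p = 0.0184), and the median difference of the 12 was -1.35. HSC replicate 2 stood apart for this list, with a summed log2 level of 12.08 against 9.31 and 8.99 on the other HSC arrays and 8.06 to 8.72 in MPP. Without it Chil3 was not called (-1.88; limma, adjusted p = 0.0817), and neither Ngp nor Chil3 was called without MPP replicate 3 (adjusted p = 0.0811 and 0.0971) or with 16 added (0.0589 and 0.133). Chil3 was also not called without MPP replicate 1 (adjusted p = 0.0774). Without HSC replicate 2, MPP minus HSC was 4.59 for Bpifc, 4.29 for Ddx4 and 4.67 for Emp1. Of 12 T cell genes 2 were higher (Cd28 and Cd6) and 0 lower, and of 12 natural killer genes 1 was higher (Id2) and 1 lower (Gata3). Of 14 stromal and endothelial genes 1 was higher (Pdgfrb) and 3 lower (Bgn, Kdr and Tek). Of 12 erythroid and megakaryocyte genes 0 were higher and 9 lower, and of 16 HSC genes 0 and 14. The HSC genes counted include Slamf1, the gene of the sort marker CD150.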

How the data were processed

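Total RNA of 12 sorted mouse samples was hybridised to Affymetrix arrays of 45101 probe sets. The deposited table holds linear signal intensity per probe set, made by the authors with RMA per the submitters' processing notes; its version and the build are not given in the sources used here. Array medians were 14.37 to 15.58 intensity units. Here log2 was taken without a pseudocount, 64 control probe sets were left out, and 34945 probe sets with 1 symbol in the platform annotation were kept (932 had several, 9160 none). Each of 18193 genes was represented by its brightest probe set on average (9010 genes had several). limma 3.58.1 in R 4.3.3 fitted a mean per population over all arrays, with eBayes and two-sided p-values adjusted by Benjamini-Hochberg over all genes. A gene is called at an adjusted p under 0.05. The fit was tested on simulated data. The number of arrays and, for dim probe sets, the background signal limit precision. Sequences are from RefSeq (GRCm38.p6).

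The 3 genes and all lists were chosen with earlier results of these data known. Named besides the 3 genes are the 5 closest profiles per gene without clone names or gene models, 2 neighbours on each side, and up to 4 called genes per list. Other list members were named after their values were seen. Samples of HSC, MPP, PreMegE and CD4+ T cells with the same replicate number were not paired: the correlations of their deviations between HSC and MPP were -0.01, 0.16 and 0.07, and over the other pairs of populations -0.12 to 0.41. PreMegE replicate 4 is described as a replicate 3 in the labels and was kept as its own sample. Alternatives were other normalisation, an offset of 16, a filter on low genes, other probe sets, replicate terms, averaging PreMegE replicates 3 and 4, leaving out arrays, HSC replicate 1 alone, and other variance settings.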

Additional observations from a re-analysis of the deposited data

How the results depend on the processing

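The height of Bpifc, Ddx4 and Emp1 in MPP over the next highest population kept its direction in every alternative run. Adding 16 before log2 lowered it to 3.04 for Bpifc, 3.00 for Ddx4 and 2.70 for Emp1. For Emp1 it was 1.93 with the mean of both probe sets and 0.32 with the dimmer probe set alone. Without single arrays it ranged from 4.39 to 4.75 for Bpifc, 4.29 to 4.44 for Ddx4 and 3.19 to 3.68 for Emp1.

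Ddx4 in PreMegE minus HSC was -0.60 with HSC replicate 1 as the only HSC array (limma, adjusted p = 0.0609) and -0.17 with 16 added (limma, adjusted p = 0.0556), and -0.61 to -0.47 without single arrays. Emp1 in CD4+ T cells minus HSC was 0.45 with the mean of its probe sets (limma, adjusted p = 0.103) and reversed to -0.11 on the dimmer probe set (adjusted p = 0.75). It was 0.77 to 1.26 without single arrays, no longer called without CD4+ T cell replicate 2. Emp1 in CD4+ T cells minus PreMegE reversed to -0.049 on the dimmer probe set (limma, adjusted p = 0.896). Dnmt3a in MPP minus PreMegE reversed from 0.71 to -0.16 with the mean of its probe sets (limma, adjusted p = 0.425). The causes of these changes were not tested.

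The replicate number as a block changed no call among the 3 genes, although the numbers do not pair the samples: with the replicate block, Ddx4 in PreMegE minus HSC was -0.54 (limma, adjusted p = 0.0189) and Emp1 in CD4+ T cells minus HSC was 0.93 (limma, adjusted p = 0.0136). The background level of the arrays limits what can be said of differences among low values.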
